A study of Mus musculus with 4 samples.

Results

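Il12b-positive, Cd70-negative mature dendritic cells (DCs) were 403 of the 32523 barcodes in 4 single-cell libraries of CD11c+ MHC-II+ cells from B16-F10 mouse melanomas. A barcode was taken when it had at least 500 detected genes, at most 10% mitochondrial transcripts, at least 3 Ccr7, at least 1 Fscn1 and at least 1 Il12b molecule, no Cd70 molecule, and fewer than 5 C1qa, C1qb and C1qc molecules together per 10000. Molecules are unique molecular identifiers (UMIs), which count each captured transcript once. Of the 26882 barcodes that passed the quality limits, 1320 met the Ccr7, Fscn1 and C1q conditions and are called mature DCs here. They divided into the 403 Il12b-positive cells, 592 cells with neither Il12b nor Cd70 (Il12b-negative cells) and 325 Cd70-positive cells with or without Il12b. The choice used measured Il12b, Cd70, Ccr7, Fscn1 and C1q counts, so the levels of these 7 genes are given as a description and were left out of every count of genes.

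The tumors grew under the skin of C57BL/6 mice from 500000 injected B16-F10 cells, a melanoma line, and received 1 adenovirus injection on day 12. The injected viruses were the mixture of ISF35 and mIFNB (Ad-COMBO), mouse interferon beta (Ad-mIFNB), ISF35, a CD40 ligand chimera (Ad-MEM40), and an empty virus (Ad-Null). Every group therefore carried an adenovirus, and no uninjected tumor was part of the comparison. A treatment was represented by a single library made from 3 tumors, so differences between treatments have no replicate and no statistical test. Intervals below are exact 95% intervals, binomial (Clopper-Pearson) for shares and Poisson for levels, and they cover counting error only.

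Mature DCs are dendritic cells that have switched from sampling their surroundings to presenting antigen. They gain the chemokine receptor Ccr7, which guides them to lymph nodes, and the actin-bundling protein fascin, encoded by Fscn1. Il12b encodes p40, a chain shared by 2 cytokines: with p35 (Il12a) it forms IL-12, which drives interferon gamma production by T and NK cells, and with p19 (Il23a) it forms IL-23. In mouse tumors a Ccr7-positive DC state is a known source of IL-12. CD40 ligation and microbial signals are classical inducers of p40 in DCs, acting largely through NF-kB.

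Il12b lies at chr11:44400063-44414033 on the plus strand of GRCm38. The 250 bases before its start (chr11:44399813-44400062, plus strand, RefSeq, GRCm38.p6) are shown because Il12b defines these cells. Capitals mark TATATAA, found by a search of both strands 30 to 24 bases before the start. The same 7 letters occurred in 3.26% of 27025 promoter windows of 250 bases, and the match is a description of the sequence.
Il12b: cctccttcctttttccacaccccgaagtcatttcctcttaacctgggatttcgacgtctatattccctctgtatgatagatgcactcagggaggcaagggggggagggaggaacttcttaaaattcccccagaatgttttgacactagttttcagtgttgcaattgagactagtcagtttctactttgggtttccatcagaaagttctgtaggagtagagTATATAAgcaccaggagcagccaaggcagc

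Other mature DC markers than the genes that chose the cells were also present. Levels are given as CPM, the UMIs of a gene summed over the cells of a library and scaled to a common total. Cacnb3, a calcium channel subunit of mature DCs, stood at 528 CPM in Ad-COMBO, 291 in Ad-mIFNB, 347 in Ad-MEM40 and 210 in Ad-Null cells. Socs2, a feedback inhibitor of cytokine signalling, stood at 575 CPM in Ad-COMBO, 362 in Ad-mIFNB, 293 in Ad-MEM40 and 252 in Ad-Null cells. Ccl22, a chemokine that attracts regulatory T cells, stood at 618 CPM in Ad-COMBO, 425 in Ad-mIFNB, 568 in Ad-MEM40 and 463 in Ad-Null cells, with UMIs in 11 of 19 Ad-COMBO, 31 of 46 Ad-mIFNB, 153 of 204 Ad-MEM40 and 104 of 134 Ad-Null cells. Transcripts of the sorting marker CD11c (Itgax) were sparse, at 4.71 CPM from 1 cell in Ad-COMBO, 67.3 in Ad-mIFNB, 49.1 in Ad-MEM40 and 61.4 in Ad-Null. The mature DC list holds 12 genes, 3 of them used in the choice, and cells outside the mature DCs were not compared. Of the 9 others, 1 leaned upward over Il12b-negative cells and 0 over Cd70-positive cells.

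A minority of barcodes also carried transcripts of other cell types. Counting barcodes with at least 10 marker UMIs that also made up at least 10 per 10000, 23 of the 403 had melanoma (3), plasmacytoid DC (8) or macrophage (15) markers, some of them more than 1 kind. They were 1 of 19 in Ad-COMBO, 1 of 46 in Ad-mIFNB, 15 of 204 in Ad-MEM40 and 6 of 134 in Ad-Null, beside 23 of 592 Il12b-negative and 11 of 325 Cd70-positive cells. The 9 melanoma markers together gave 23.6 CPM in Ad-COMBO, 5.73 in Ad-mIFNB, 1031 in Ad-MEM40 and 707 in Ad-Null. Doublet calling with Scrublet marked 0 cells in Ad-COMBO, 0 in Ad-mIFNB, 33 in Ad-MEM40 and 14 in Ad-Null. Libraries shared few barcode sequences, which touched 2 Ad-MEM40 and 1 Ad-Null cell.

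Depth differed between libraries. The median cell held 8393 UMIs in Ad-COMBO, 13586 in Ad-mIFNB, 8736.5 in Ad-MEM40 and 16071.5 in Ad-Null. The 19 Ad-COMBO cells summed to 212126 UMIs, against 698343 in Ad-mIFNB, 2177224 in Ad-MEM40 and 2913239 in Ad-Null, so Ad-COMBO levels are the least precise. A single Ad-Null barcode held 177175 UMIs and 95.8% of the Dct UMIs, a melanocyte enzyme, of the Ad-Null cells.

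The Il12b-positive share of mature DCs was close to equal in 3 libraries and lower in Ad-COMBO. It was 19.4% (19 of 98, interval 12.1 to 28.6%) in Ad-COMBO, 31.3% (46 of 147, 23.9 to 39.5%) in Ad-mIFNB, 31.2% (204 of 653, 27.7 to 34.95%) in Ad-MEM40 and 31.8% (134 of 422, 27.3 to 36.4%) in Ad-Null. The Ad-COMBO interval reached into those of Ad-mIFNB, Ad-MEM40 and Ad-Null. When each barcode was thinned to 5000 UMIs and shallower ones were left out, the shares were 20.3% in Ad-COMBO, 33.6% in Ad-mIFNB, 31.3% in Ad-MEM40 and 31.0% in Ad-Null. Thinning to 3000 UMIs gave 25.9% (15.3 to 39.0%) in Ad-COMBO, 33.0% in Ad-mIFNB, 32.0% in Ad-MEM40 and 31.1% in Ad-Null, a smaller gap. Thinning also moved cells between states: of the Ad-COMBO cells that were Il12b-positive and Cd70-negative after thinning to 5000 UMIs, 5 had held Cd70 before it and 8 had not.

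The lower Ad-COMBO share stood beside a higher share of Cd70-positive cells, which count among the mature DCs but by the rule not among the Il12b-positive cells. Any mature DC with an Il12b UMI, Cd70 or not, made up 42.9% in Ad-COMBO, 45.6% in Ad-mIFNB, 45.8% in Ad-MEM40 and 43.6% in Ad-Null. Cd70, the ligand of the T cell receptor CD27, was found in 44.9% (34.8 to 55.3%) of the mature DCs of Ad-COMBO, 20.4% (14.2 to 27.8%) of Ad-mIFNB, 26.2% (22.9 to 29.7%) of Ad-MEM40 and 18.96% (15.3 to 23.03%) of Ad-Null. After thinning, the Cd70-positive shares were 35.9% in Ad-COMBO, 13.1% in Ad-mIFNB, 24.1% in Ad-MEM40 and 9.86% in Ad-Null. Among the Cd70-positive cells, 52.3% in Ad-COMBO, 70.0% in Ad-mIFNB, 55.6% in Ad-MEM40 and 62.5% in Ad-Null also held Il12b. Of the Cd70-negative mature DCs, 35.2% (22.7 to 49.4%) in Ad-COMBO and 39.3% (30.4 to 48.8%) in Ad-mIFNB held Il12b. In Ad-MEM40 it was 42.3% (37.9 to 46.9%) and in Ad-Null 39.2% (34.0 to 44.6%) of these cells, so the Ad-COMBO value was the lowest with overlapping intervals.

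As a share of all barcodes that passed the quality limits, the cells were 2.83% (1.71 to 4.39%) in Ad-COMBO, 2.54% (1.87 to 3.38%) in Ad-mIFNB, 1.30% (1.13 to 1.49%) in Ad-MEM40 and 1.53% (1.29 to 1.81%) in Ad-Null. The mature DCs as a whole were 14.6% in Ad-COMBO, 8.12% in Ad-mIFNB, 4.17% in Ad-MEM40 and 4.83% in Ad-Null. Among all barcodes past the quality limits, both interferon beta libraries thus held larger shares of mature DCs and of Il12b-positive cells than Ad-MEM40 and Ad-Null did. The Ad-COMBO interval for the Il12b-positive cells reached into that of Ad-Null. The C1q limit left out 190 otherwise matching cells in Ad-MEM40 and 73 in Ad-Null, against 3 in Ad-COMBO and 10 in Ad-mIFNB. Its part in these shares was not tested.

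**Figure D1:**
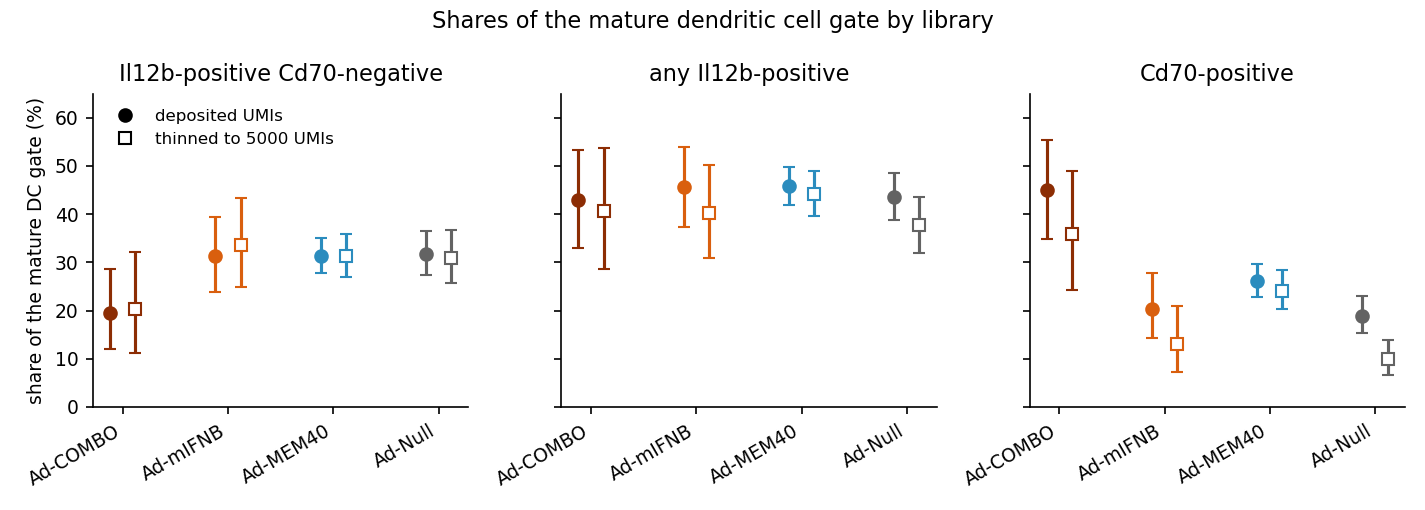
Percent of mature DCs (vertical axis) that were Il12b-positive and Cd70-negative, Il12b-positive with or without Cd70, and Cd70-positive in each library, from all UMIs and after thinning to 5000 UMIs, with exact 95% intervals as bars. The Il12b-positive Cd70-negative share is lowest in Ad-COMBO (19.4%), where the Cd70-positive share is highest (44.9%).

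Free RNA in droplets can put UMIs of a gene into cells that do not express it. After thinning to 5000 UMIs, Il12b was found in 39.7% of mature DCs in Ad-COMBO, 38.6% in Ad-mIFNB, 42.0% in Ad-MEM40 and 35.4% in Ad-Null. In C1q-high Ccr7-negative cells, taken as a comparison, the shares were 1.43% in Ad-COMBO, 1.70% in Ad-mIFNB, 1.76% in Ad-MEM40 and 1.58% in Ad-Null. Whether their Il12b UMIs came from free RNA or from the cells themselves was not tested. Before thinning, the median mature DC in this comparison held 12964 UMIs in Ad-COMBO, 13559 in Ad-mIFNB, 9180.5 in Ad-MEM40 and 16636 in Ad-Null. The median C1q-high cell held 21318 UMIs in Ad-COMBO, 19610 in Ad-mIFNB, 12564.5 in Ad-MEM40 and 19123 in Ad-Null, so the comparison cells were the deeper ones before thinning. Ccr7-negative Xcr1-positive cells, a cDC1 population, held Il12b in 4.81% in Ad-COMBO, 1.78% in Ad-mIFNB, 5.93% in Ad-MEM40 and 2.50% in Ad-Null.

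Il12b itself was spread very unevenly over the cells. The cell counts ran up to 95 UMIs in Ad-COMBO, 138 in Ad-mIFNB, 207 in Ad-MEM40 and 162 in Ad-Null, while the medians were 5 UMIs in Ad-COMBO, 6 in Ad-mIFNB, 6 in Ad-MEM40 and 5 in Ad-Null. At least 20 UMIs were found in 4 of 19 Ad-COMBO, 12 of 46 Ad-mIFNB, 48 of 204 Ad-MEM40 and 33 of 134 Ad-Null cells. Just at the threshold, with a single Il12b UMI, were 5 cells in Ad-COMBO, 8 in Ad-mIFNB, 37 in Ad-MEM40 and 21 in Ad-Null. Summed over cells, Il12b stood at 1212 CPM (1068 to 1369) in Ad-COMBO, 1292 (1209 to 1379) in Ad-mIFNB, 1506 (1455 to 1558) in Ad-MEM40 and 843 (810 to 877) in Ad-Null. Deeper cells could enter with less Il12b per UMI, and Ad-Null cells were the deepest. The part of depth in these levels was not tested. A single Ad-COMBO cell supplied 37.0% of that library's Il12b UMIs, and the highest cell of Ad-mIFNB supplied 15.3%. Cd70-positive cells held Il12b at 1430 CPM in Ad-COMBO, 1375 in Ad-mIFNB, 1729 in Ad-MEM40 and 982 in Ad-Null.

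Few cells lay at the Ccr7 threshold, while the C1q limit left out many cells in Ad-MEM40 and Ad-Null. Cells at exactly 3 Ccr7 UMIs numbered 1 in Ad-COMBO, 2 in Ad-mIFNB, 8 in Ad-MEM40 and 4 in Ad-Null. Cells with 2 Ccr7 UMIs that met every other condition, and so fell just outside, numbered 1 in Ad-COMBO, 2 in Ad-mIFNB, 14 in Ad-MEM40 and 2 in Ad-Null. The C1q limit left out 3 otherwise matching cells in Ad-COMBO, 10 in Ad-mIFNB, 190 in Ad-MEM40 and 73 in Ad-Null. Just outside it, at 5 to 10 per 10000, lay 1 in Ad-COMBO, 3 in Ad-mIFNB, 21 in Ad-MEM40 and 9 in Ad-Null.

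**Figure D2:**
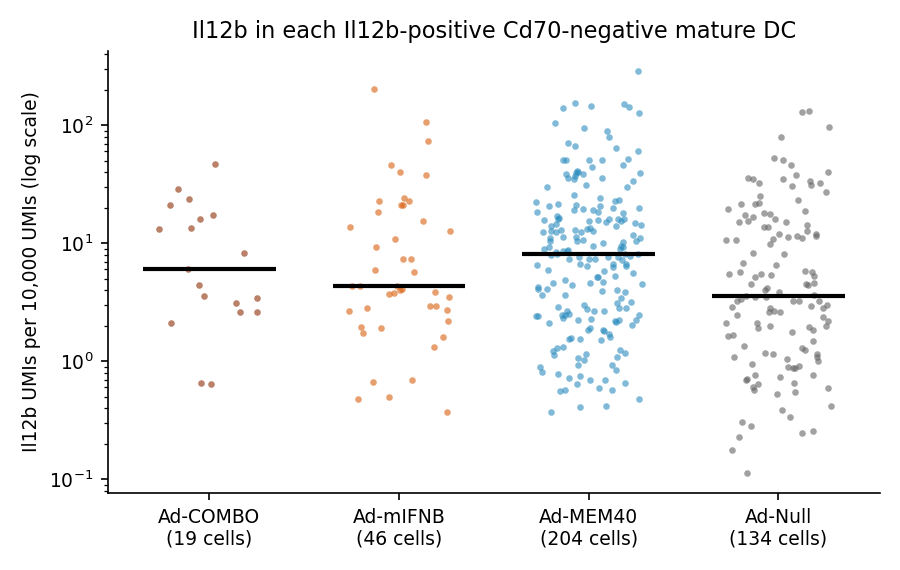
Il12b UMIs per 10000 UMIs (vertical log axis) of each Il12b-positive Cd70-negative cell in the 4 libraries, with the median as a line. The medians are 6.10 in Ad-COMBO, 4.34 in Ad-mIFNB, 8.08 in Ad-MEM40 and 3.60 in Ad-Null, and cells range over more than 10-fold in each library. A single Il12b UMI sufficed for entry, so deeper cells could enter at a lower level. The lowest values are 0.640 in Ad-COMBO, 0.369 in Ad-mIFNB, 0.372 in Ad-MEM40 and 0.113 in Ad-Null. The part of depth in the order of the medians was not tested.

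Transcripts of the partner chains of p40 were almost absent. Il12a (p35) gave 1 UMI in Ad-COMBO, 2 in Ad-mIFNB, 3 in Ad-MEM40 and 0 in Ad-Null, where the interval allowed up to 1.27 CPM. Il23a (p19) gave 1 UMI in Ad-COMBO, 2 in Ad-mIFNB, 2 in Ad-MEM40 and 1 in Ad-Null, whereas Cd70-positive cells of Ad-MEM40 held 131 CPM of Il23a. Ebi3 and Il27, the chains of IL-27, were measurable. Ebi3 stood at 123 CPM in Ad-COMBO, 115 in Ad-mIFNB, 70.3 in Ad-MEM40 and 61.4 in Ad-Null, and Il27 at 42.4 CPM in Ad-COMBO, 74.5 in Ad-mIFNB, 11.0 in Ad-MEM40 and 11.0 in Ad-Null. The Cd70-positive cells held more Ebi3 in every library, at 518 CPM in Ad-COMBO, 190 in Ad-mIFNB, 396 in Ad-MEM40 and 114 in Ad-Null. UMI counts of different genes are set side by side here without regard to capture differences between transcripts.

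Which genes went with Il12b among Cd70-negative mature DCs was asked by setting the Il12b-positive against the Il12b-negative cells of the same library. UMIs were summed per library and state and tested with edgeR's quasi-likelihood test, with library as a block and Benjamini-Hochberg adjustment. The libraries served as replicates, although they differ in treatment and come from different tumors. The Ad-COMBO Il12b-positive sum had 19 cells, under the minimum of 20, and was left out of the fit, which used 11 sums. Of 8812 genes, 23 were higher (0.261%) and 9 lower (0.102%) in Il12b-positive cells at an adjusted p under 0.05. Of 8 tested melanoma markers 8 leaned upward (median log2 fold change 1.70), and Ptgds was among the 23. In Ad-Null 1 cell held 96.2% of its UMIs. Melanoma markers summed to 707 CPM in Ad-Null and 1031 in Ad-MEM40, against 34.2 and 685 in Il12b-negative cells. In Ad-COMBO (23.6 against 32.3) and Ad-mIFNB (5.73 against 50.0) the Il12b-positive sum was lower.

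Cd81, a tetraspanin at chr7:143052739-143067934, changed most clearly. It stood at 222 CPM in Ad-COMBO, 87.4 in Ad-mIFNB, 156 in Ad-MEM40 and 65.9 in Ad-Null Il12b-positive cells. The Il12b-negative cells held 32.3 CPM in Ad-COMBO, 38.6 in Ad-mIFNB, 44.7 in Ad-MEM40 and 17.8 in Ad-Null. All 4 Il12b-positive values lay above all 4 Il12b-negative values, and the log2 fold change was 1.74 (SE 0.17, edgeR adjusted p = 0.000197).

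Ccl3, an inflammatory chemokine at chr11:83647844-83649355, was higher by a log2 fold change of 1.34 (SE 0.19, edgeR adjusted p = 0.00634). It stood at 622 CPM in Ad-COMBO, 882 in Ad-mIFNB, 339 in Ad-MEM40 and 208 in Ad-Null Il12b-positive cells, against 216 CPM in Ad-COMBO, 260 in Ad-mIFNB, 145 in Ad-MEM40 and 112 in Ad-Null Il12b-negative cells. Within each library the Il12b-positive value was the higher one, while the ranges of both states overlapped across libraries. Ccl5, a chemokine that attracts T cells, was higher in 3 of 4 libraries with a log2 fold change of 0.83 (SE 0.16, edgeR adjusted p = 0.0402). In Ad-COMBO it stood at 7453 CPM in Il12b-positive and 8226 CPM in Il12b-negative cells. With the Ad-COMBO Il12b-positive cells in the fit, Ccl5 no longer passed (log2 fold change 0.63, edgeR adjusted p = 0.133).

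Several genes with DC roles changed in the same contrast. Irf8, the transcription factor that the cDC1 lineage depends on, rose with a log2 fold change of 0.70 (edgeR adjusted p = 0.0402). It stood at 1141 CPM in Ad-COMBO, 1219 in Ad-mIFNB, 1203 in Ad-MEM40 and 993 in Ad-Null Il12b-positive cells, above the Il12b-negative values of 782 CPM in Ad-COMBO, 743 in Ad-mIFNB, 666 in Ad-MEM40 and 619 in Ad-Null. Ly75, the endocytic receptor DEC-205, stood at 316 CPM in Ad-COMBO, 200.5 in Ad-mIFNB, 212 in Ad-MEM40 and 173 in Ad-Null Il12b-positive cells, against 159 CPM in Ad-COMBO, 99.1 in Ad-mIFNB, 107 in Ad-MEM40 and 103 in Ad-Null Il12b-negative cells. It rose by 0.84 on the log2 scale (edgeR adjusted p = 0.0342), and no Il12b-negative value reached the lowest Il12b-positive one. Of 11 measured cDC1 markers 8 leaned upward with a median log2 fold change of 0.26, beside 0.01 over all genes, and Irf8 was the 1 that passed. The 12 cDC1 markers summed to 1608 CPM in Ad-COMBO, 1654 in Ad-mIFNB, 1760 in Ad-MEM40 and 1719 in Ad-Null Il12b-positive cells, against 1008 CPM in Ad-COMBO, 1083 in Ad-mIFNB, 1190 in Ad-MEM40 and 1311 in Ad-Null Il12b-negative cells. These sums include Irf8, which made up most of each Il12b-positive sum, and were not taken without it. In Cd70-positive cells the markers summed to 2020 CPM in Ad-COMBO, 1483 in Ad-mIFNB, 2041 in Ad-MEM40 and 1581 in Ad-Null.

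The named genes with the larger increases were Fgfbp3 (1.83), Scin (1.76), an actin-severing protein, and Slc27a3 (1.63), an acyl-CoA synthetase family member. Kctd14 (1.32), Laptm4b (1.24), Nudt9 (1.19), Bcl2l14 (1.16), Phlda1 (1.04), Arhgap31 (0.92) and Rasa2 (0.92) followed, all as log2 fold changes with edgeR adjusted p under 0.05. The rule for naming genes required the same direction in all 4 libraries. Scin stood at 174 CPM in Ad-COMBO, 88.8 in Ad-mIFNB, 105 in Ad-MEM40 and 37.4 in Ad-Null Il12b-positive cells, against 22.3 CPM in Ad-COMBO, 20.9 in Ad-mIFNB, 18.8 in Ad-MEM40 and 25.6 in Ad-Null Il12b-negative cells. Single cells weighed heavily in some of these sums. The largest part of a gene's UMIs in 1 Il12b-positive cell of a library was 95% for Kctd14, 63.6% for Phlda1 and 62.2% for Scin. It was 45.2% for Slc27a3, 44.1% for Fgfbp3, and 18.2% (Rasa2) to 31.5% (Nudt9) for the others. In Ad-MEM40 1 cell held 49.9% of the Phlda1 UMIs, and in Ad-COMBO 5 of 19 cells held Scin. Without the barcodes that carried other cell types' markers, the Phlda1 log2 fold change was 0.43 (edgeR adjusted p = 0.804), and thinning to 5000 UMIs turned it to -0.40.

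The genes that fell in Il12b-positive cells included 1 antigen loading gene and 1 interferon-induced gene. H2-DMb2, a chain of the H2-M complex that loads peptide onto MHC class II, stood at 18.9 CPM in Ad-COMBO, 83.1 in Ad-mIFNB, 80.4 in Ad-MEM40 and 139 in Ad-Null Il12b-positive cells. The Il12b-negative cells held 57.1 CPM in Ad-COMBO, 218 in Ad-mIFNB, 166 in Ad-MEM40 and 233 in Ad-Null, the higher value in each library. The log2 fold change was -1.03 (SE 0.16, edgeR adjusted p = 0.0164). Gpr183, an oxysterol receptor that positions DCs, fell by 1.02, Fabp5, a fatty acid binding protein, by 0.96, Pex16 by 0.92, Jaml by 0.89 and Icosl, the ligand of ICOS, by 0.88 on the log2 scale. Xaf1, an interferon-induced gene at chr11:72301629-72313733, fell by 0.79. It stood at 184 CPM in Ad-COMBO, 265 in Ad-mIFNB, 66.1 in Ad-MEM40 and 76.5 in Ad-Null Il12b-positive cells, against 479 CPM in Ad-COMBO, 419 in Ad-mIFNB, 134 in Ad-MEM40 and 114 in Ad-Null Il12b-negative cells.

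Lists of genes leaned the same way without most members passing the test. In the type I interferon list 1 of 30 tested genes, Xaf1, fell, 0 rose and 1 leaned upward, and the median log2 fold change was -0.57. In the MHC class II list 1 of 12, H2-DMb2, fell and 0 leaned upward, with a median of -0.48. H2-Ab1, a class II chain, had a log2 fold change of -0.53 with an edgeR adjusted p of 0.0856. None of the 18 interferon gamma-associated genes passed (median -0.57), and none of the 16 cell cycle genes passed, although 15 leaned upward (median 0.62). The 24 CD40 and NF-kB target genes had a median of -0.01 with 0 passing.

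**Figure D3:**
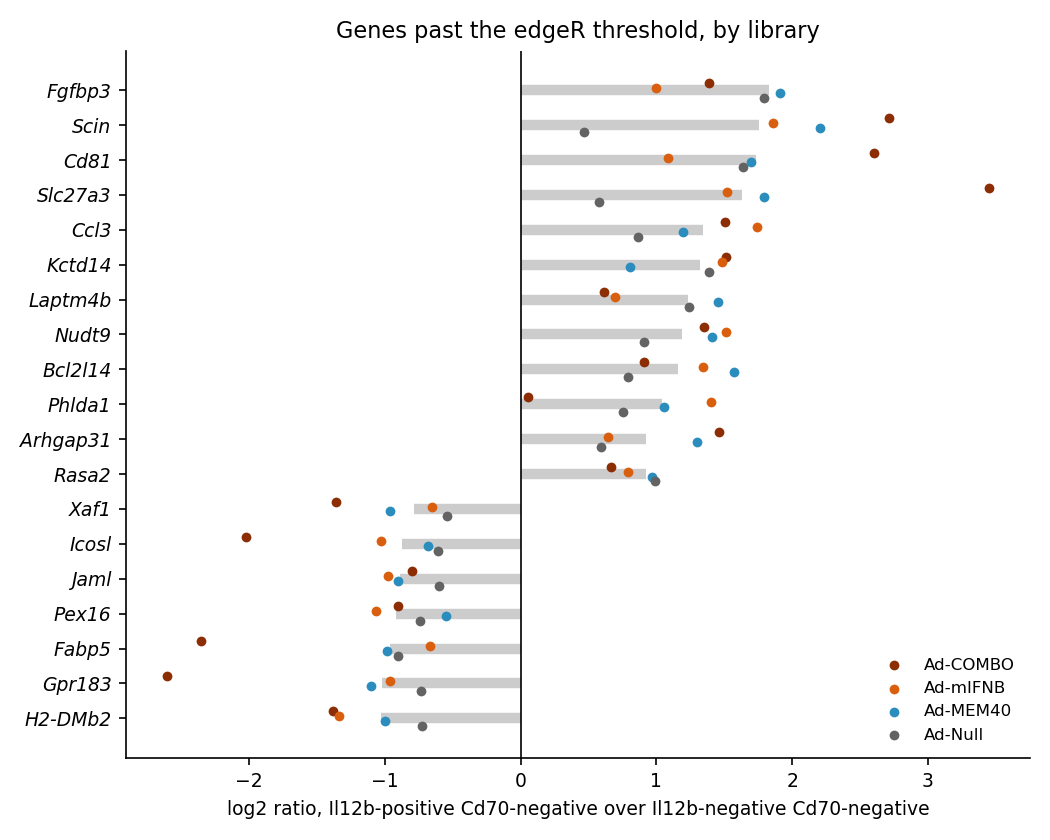
Log2 ratio of Il12b-positive over Il12b-negative cells (horizontal axis, 5 CPM added) in each library (points) and the log2 fold change of the edgeR fit, which left out the Ad-COMBO Il12b-positive sum (bars), for the named genes with the largest changes. Cd81 and Ccl3 lie above 0 and H2-DMb2 and Xaf1 below 0 in all 4 libraries.

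Against the Cd70-positive cells, 9 genes were higher (0.102%) and 17 lower (0.193%) among the same 8812, in the same fit. Without barcodes carrying other cell types' markers, 1 of 8554 genes was higher and 9 were lower. Without Scrublet doublets, 1 of 8226 was higher and 11 were lower. The 17 lower ones of the main fit included surface ligands and secreted factors of activated DCs. Dll4, a Notch ligand, stood at 23.6 CPM in Ad-COMBO, 8.59 in Ad-mIFNB, 5.05 in Ad-MEM40 and 0.687 in Ad-Null Il12b-positive cells, against 112 CPM in Ad-COMBO, 16.03 in Ad-mIFNB, 83.6 in Ad-MEM40 and 4.35 in Ad-Null Cd70-positive cells. Its log2 fold change was -3.14 (SE 0.47, edgeR adjusted p = 0.0116). Ebi3 fell by 1.48 (edgeR adjusted p = 0.0156), Ccl22 by 1.34, Tnfsf9, the ligand of 4-1BB, by 0.91 and Cd80, a ligand of CD28, by 0.80 on the log2 scale. Plat, the tissue plasminogen activator, fell by 2.15, Rcsd1 by 0.84 and Ankrd33b by 0.78. For Plat, 1 cell held 100% of the Il12b-positive UMIs of a library, and the DESeq2 adjusted p was 0.108. With the Ad-COMBO Il12b-positive cells in the fit, the edgeR adjusted p of Ankrd33b was 0.207.

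Of 9 tested costimulation genes 3 fell and 0 leaned upward (median log2 fold change -0.79, all genes 0.02). Besides Cd80 and Tnfsf9 these included Cd40, which fell by 1.02 and was lower in 3 of 4 libraries. With the Ad-COMBO Il12b-positive cells in the fit, Cd80 still passed, whereas the edgeR adjusted p was 0.307 for Cd40 and 0.0634 for Tnfsf9. In Ad-COMBO Cd40 stood at 608 CPM in Il12b-positive and 442 CPM in Cd70-positive cells, with 49.6% of the Il12b-positive UMIs in 1 cell. Cd81 ordered the 3 states in every library, lowest in Il12b-negative cells and highest in Cd70-positive cells, which held 380 CPM in Ad-COMBO, 168 in Ad-mIFNB, 285 in Ad-MEM40 and 131 in Ad-Null (lower in Il12b-positive than in Cd70-positive cells, edgeR adjusted p = 0.0116). Among the genes higher in Il12b-positive cells, 4 of 8 tested melanoma markers passed and single barcodes supplied most of their UMIs. For Dct, 95.8% of the Ad-Null and 53.5% of the Ad-MEM40 UMIs came from 1 cell each, and its log2 fold change was 0.34 (edgeR adjusted p = 0.899) without barcodes carrying other cell types' markers. Hist1h3c, a histone gene with near-identical copies, was higher by 1.79.

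The number of calls moved with the libraries in the fit. Leaving out Ad-MEM40 left 1 gene called against Il12b-negative cells and 0 against Cd70-positive cells. Against Il12b-negative and Cd70-positive cells, 3 and 21 genes were called without Ad-mIFNB, 5 and 15 without Ad-Null, and 89 and 72 without Ad-COMBO. With the Ad-COMBO Il12b-positive cells included, an alternative added after the data were seen, 68 and 20 genes were called. Cd81 passed against Il12b-negative cells without Ad-mIFNB (log2 1.88) and without Ad-Null (log2 1.68), and not without Ad-MEM40 (log2 1.70, edgeR adjusted p = 0.0707).

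The treatments were compared within the Il12b-positive cells, each with Ad-Null, by log2 ratios of CPM with 5 CPM added to both sides. Genes needed at least 20 UMIs over both sums. In Ad-COMBO 637 of 8232 genes were at least 2-fold higher (7.74%) and 1727 at least 2-fold lower (21.0%). In Ad-mIFNB 239 of 8511 were higher (2.81%) and 454 lower (5.33%), and in Ad-MEM40 75 of 9304 were higher (0.806%) and 63 lower (0.677%). The Ad-COMBO counts come from 19 cells, and among the genes of at least 50 CPM in 1 of the libraries, a limit added after the data were seen, 420 were higher and 432 lower. The median log2 ratio of all genes was -0.18 in Ad-COMBO, -0.06 in Ad-mIFNB and -0.02 in Ad-MEM40.

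Type I interferon response genes were higher with both interferon beta viruses. In Ad-COMBO 22 of 30 genes were at least 1.5-fold higher, beside 18.5% of all genes, and 0 were 1.5-fold lower, beside 33.1%. In Ad-mIFNB 28 of 30 were higher (10.1% of all genes) and 0 lower (15.4%), and in Ad-MEM40 0 were higher (4.80%) and 9 lower (5.49%). The list medians on the log2 scale were 1.11 in Ad-COMBO, 1.37 in Ad-mIFNB and -0.39 in Ad-MEM40. The Il12b-negative cells of the same libraries had medians of 2.14 in Ad-COMBO, 1.66 in Ad-mIFNB and 0.28 in Ad-MEM40, and the difference between both states was not tested. Plasmacytoid DC markers, a list of 10 genes that shares Bst2 with the interferon list, also rose in both interferon beta libraries. At 1.5-fold, 9 were higher in Ad-COMBO (median log2 2.19), 7 in Ad-mIFNB (0.74) and 3 in Ad-MEM40 (0.18), and 0 lower in each. They summed to 1829 CPM in Ad-COMBO, 1168 in Ad-mIFNB and 613 in Ad-MEM40, against 557 in Ad-Null, with no marker at 0. In Il12b-negative cells the marker medians were -0.79 in Ad-COMBO, 0.85 in Ad-mIFNB and -0.36 in Ad-MEM40. The marker sum there was 1738 CPM in Ad-COMBO, against 604 in Ad-Null. Among the Ad-COMBO Il12b-positive cells, 1 cell held 100% of the Ly6d UMIs. The Ly6d log2 ratio was 4.68, and -0.10 without barcodes carrying other cell types' markers. Without the barcodes that carried other cell types' markers, 1 of them in Ad-COMBO, the interferon medians were 0.97 in Ad-COMBO, 1.32 in Ad-mIFNB and -0.45 in Ad-MEM40. The plasmacytoid DC marker medians were not taken without these barcodes.

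Rsad2, the antiviral enzyme viperin, stood at 561 CPM in Ad-COMBO, 570 in Ad-mIFNB and 119 in Ad-MEM40, against 107 CPM in Ad-Null Il12b-positive cells. Isg15, a ubiquitin-like modifier, stood at 2484 CPM in Ad-COMBO, 3495 in Ad-mIFNB and 761 in Ad-MEM40, against 881 in Ad-Null. Both interferon beta libraries were therefore far above Ad-MEM40 and Ad-Null for these genes. Ifit3, an antiviral protein whose transcripts resemble those of the neighbouring copy Ifit3b, did not follow in Ad-COMBO. It stood at 84.9 CPM in Ad-COMBO, 354 in Ad-mIFNB and 31.7 in Ad-MEM40, against 77.9 in Ad-Null. Of the 18 Ad-COMBO Ifit3 UMIs 72.2% came from 1 of 4 positive cells, whereas the Il12b-negative cells of Ad-COMBO held 524 CPM. Ifit1bl1 likewise stood at 9.43 CPM in Ad-COMBO, 241 in Ad-mIFNB, 8.27 in Ad-MEM40 and 33.6 in Ad-Null.

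The 150 bases before the start of Rsad2 (chr12:26456453-26456602, minus strand) and of Ifit3 (chr19:34583379-34583528, plus strand) are shown for the contrast between them. Both are from RefSeq, GRCm38.p6. Capitals mark GAAA, any 2 bases and GAAA again, or the reverse complement, the core of the interferon-stimulated response element, found by a search of both strands. It lies 120 to 111 bases before the start in Rsad2 and 122 to 113 before it in Ifit3. In windows of 250 bases the letters occurred in 11 of the 24 interferon genes with a promoter entry (45.8%) and in 821 of 27025 genes (3.04%).
Rsad2: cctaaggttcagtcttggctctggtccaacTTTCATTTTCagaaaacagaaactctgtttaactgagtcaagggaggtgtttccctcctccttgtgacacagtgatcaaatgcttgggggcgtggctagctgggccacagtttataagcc
Ifit3: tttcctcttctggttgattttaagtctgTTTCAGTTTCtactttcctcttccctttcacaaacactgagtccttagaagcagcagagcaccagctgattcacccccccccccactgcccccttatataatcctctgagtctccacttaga

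MHC class II presentation genes were lower with both interferon beta viruses than with Ad-Null, most of all in Ad-COMBO. At 1.5-fold, 12 of 12 genes were lower in Ad-COMBO (33.1% of all genes), 6 in Ad-mIFNB (15.4%) and 3 in Ad-MEM40 (5.49%), and 0 were higher in each. The median log2 ratios were -1.70 in Ad-COMBO, -0.61 in Ad-mIFNB and -0.39 in Ad-MEM40, beside -1.32 in Ad-COMBO, -0.19 in Ad-mIFNB and -0.22 in Ad-MEM40 Il12b-negative cells. After thinning to 5000 UMIs the medians were -1.95 in Ad-COMBO, -0.53 in Ad-mIFNB and -0.03 in Ad-MEM40, where 0 genes were then 1.5-fold lower and 1 higher. Markers of cDC2s were lower beside them, 8 of 11 in Ad-COMBO (median -2.95), 5 in Ad-mIFNB (-0.30) and 3 in Ad-MEM40 (-0.32), and macrophage markers in 6 of 7 in Ad-COMBO (-3.11) and 5 of 7 in Ad-mIFNB (-1.15), but in 0 of 9 in Ad-MEM40 (0.56). The 12 cDC2 markers summed to 726 CPM in Ad-COMBO, 1604 in Ad-mIFNB and 1716 in Ad-MEM40, against 2127 in Ad-Null, with 3 of them, and 6 of the 12 macrophage markers, at 0 in Ad-COMBO. Their part in the MHC class II values was not tested. H2-Ab1 stood at 1452 CPM in Ad-COMBO, 3524 in Ad-mIFNB and 4307 in Ad-MEM40, against 5698 in Ad-Null. It was detected in 12 of 19 Ad-COMBO, 39 of 46 Ad-mIFNB and 196 of 204 Ad-MEM40 cells, against 133 of 134 Ad-Null cells, although all libraries were sorted for the MHC-II protein. One Ad-COMBO cell alone held 75% of that library's H2-Ab1 UMIs. Ciita, the class II transactivator, stood at 23.6 CPM in Ad-COMBO, from 1 cell, 61.6 in Ad-mIFNB and 89.6 in Ad-MEM40, against 119 in Ad-Null. Of 22 MHC class I genes, 11 were higher in Ad-COMBO (median 0.55) and 9 in Ad-mIFNB (0.48), but 0 in Ad-MEM40 (0.04), beside 18.5%, 10.1% and 4.80% of all genes in these libraries. After thinning, 3 of 20 were higher in Ad-COMBO, 7 of 21 in Ad-mIFNB and 0 of 21 in Ad-MEM40. The share of all genes past 1.5-fold after thinning was not taken, for either MHC list. B2m, the light chain of class I, stood at 5445 CPM in Ad-COMBO, 4628 in Ad-mIFNB and 3037 in Ad-MEM40, against 2855 in Ad-Null.

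CD40 and NF-kB target genes were higher above all in Ad-COMBO, where 19 of 24 were 1.5-fold higher (18.5% of all genes) and 1 lower (33.1%), with a median log2 ratio of 0.83. In Ad-mIFNB 7 were higher (10.1%) and 2 lower (15.4%), with a median of 0.38, and in Ad-MEM40 6 were higher (4.80%) and 0 lower (5.49%), with a median of 0.36. Dissociation and heat stress genes, a list of 16 immediate early and heat shock genes, moved with them: 8 were higher in Ad-COMBO (median 0.59), 0 in Ad-mIFNB (0.10) and 4 in Ad-MEM40 (0.38), with 0 lower in Ad-COMBO, 2 in Ad-mIFNB and 0 in Ad-MEM40. Their part in the CD40 and NF-kB values was not tested. After thinning, 10 of 22 CD40 and NF-kB genes were higher in Ad-COMBO, 5 of 22 in Ad-mIFNB and 6 of 24 in Ad-MEM40, without a thinned share of all genes to set beside them. Tnf, an inflammatory cytokine, stood at 863 CPM (742 to 997) in Ad-COMBO, 296 in Ad-mIFNB and 203 in Ad-MEM40, against 109 (97.5 to 122) in Ad-Null. It was found in 17 of 19 Ad-COMBO, 29 of 46 Ad-mIFNB and 122 of 204 Ad-MEM40 cells, against 81 of 134 Ad-Null cells, and the highest Ad-COMBO cell held 18.0% of its UMIs. Tnfaip3, the NF-kB feedback inhibitor A20, stood at 872 CPM in Ad-COMBO, 220 in Ad-mIFNB and 407 in Ad-MEM40, against 208 in Ad-Null. Nfkbia, another feedback inhibitor, was highest in Ad-MEM40 at 2754 CPM, beside 2560 in Ad-COMBO and 1744 in Ad-mIFNB, against 1594 in Ad-Null.

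Of the costimulation genes 6 of 9 were higher in Ad-COMBO (18.5% of all genes; median 0.91), 5 of 10 in Ad-mIFNB (10.1%; 0.71) and 2 of 9 in Ad-MEM40 (4.80%; 0.17). In Ad-COMBO 2 were lower, beside 33.1% of all genes, and 0 were lower in Ad-mIFNB and Ad-MEM40. Cd40 stood at 608 CPM in Ad-COMBO, 284 in Ad-mIFNB and 227 in Ad-MEM40, against 153 in Ad-Null. Tnfsf9 stood at 335 CPM in Ad-COMBO, 202 in Ad-mIFNB and 162 in Ad-MEM40, against 93.0 in Ad-Null. Both genes were in the order Ad-COMBO, Ad-mIFNB, Ad-MEM40 and Ad-Null. Tnfsf4, the OX40 ligand, had no UMI in Ad-COMBO and stood at 61.6 CPM in Ad-mIFNB and 28.0 in Ad-MEM40, against 18.9 in Ad-Null. Of 19 maturation and migration genes 13 were higher in Ad-COMBO (0.74), 9 in Ad-mIFNB (0.52) and 7 in Ad-MEM40 (0.52), and 1 was lower in Ad-COMBO, 0 in Ad-mIFNB and 1 in Ad-MEM40, beside the same shares of all genes. After thinning to 5000 UMIs, 3 of 19 were higher and 5 lower in Ad-COMBO, 1 higher and 1 lower in Ad-mIFNB, and 1 higher and 0 lower in Ad-MEM40. The shares of all genes given above are from the sums before thinning, and those after it were not taken.

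The cell cycle list had a median below that of all genes with every virus. In Ad-COMBO 14 of 16 genes were 1.5-fold lower (33.1% of all genes; median -2.33), in Ad-mIFNB 11 (15.4%; -0.83) and in Ad-MEM40 7 (5.49%; -0.44). In Ad-mIFNB 1 was 1.5-fold higher, and 0 were in Ad-COMBO and Ad-MEM40. Top2a, a DNA topoisomerase of dividing cells, had no UMI in the 19 Ad-COMBO cells, and stood at 55.8 CPM in Ad-mIFNB and 83.6 in Ad-MEM40, against 144 in Ad-Null, where 51 of 134 cells held it. Hist1h2ap, a histone gene, stood at 4.71 CPM from 1 UMI in Ad-COMBO, 35.8 in Ad-mIFNB and 144 in Ad-MEM40, against 740 in Ad-Null. After thinning to 5000 UMIs, 5 cell cycle genes could be measured in Ad-COMBO (median -0.89, 4 lower), 7 in Ad-mIFNB (-0.27, 2 lower) and 11 in Ad-MEM40 (-0.02, 0 lower), again without a thinned share of all genes.

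**Figure D4:**
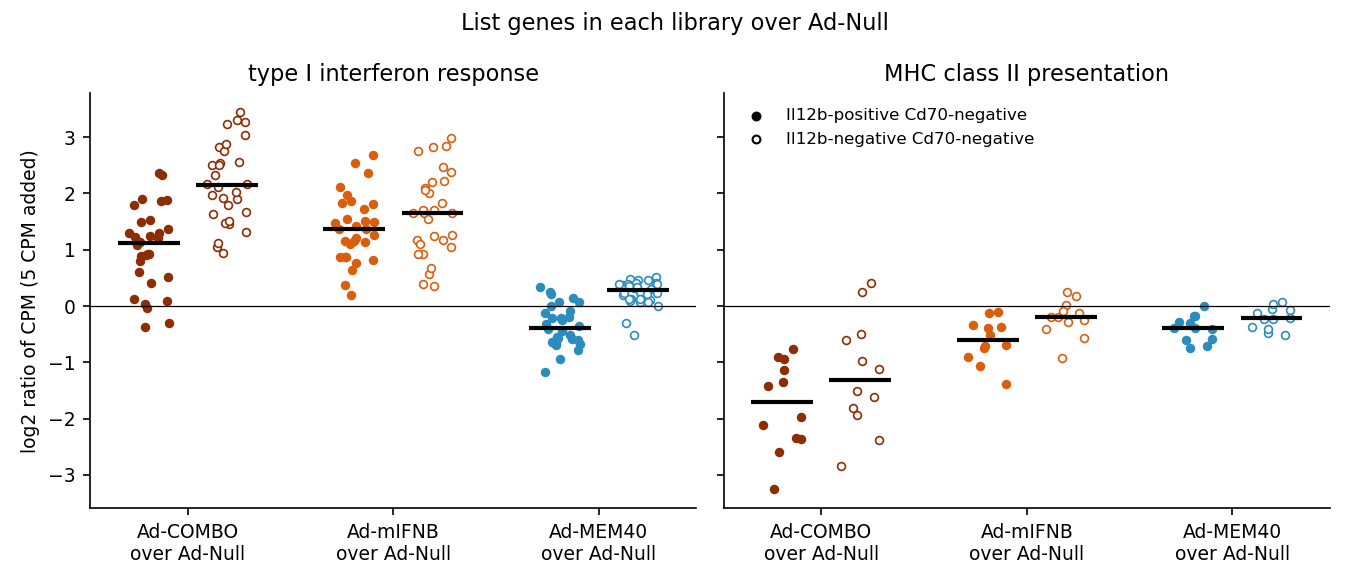
Log2 ratio of CPM over Ad-Null (vertical axis, 5 CPM added) of each measured type I interferon and MHC class II gene (points) in Il12b-positive (filled) and Il12b-negative cells (open), with list medians as lines. The type I interferon median is at 1.11 in Ad-COMBO, 1.37 in Ad-mIFNB and -0.39 in Ad-MEM40 Il12b-positive cells, and the MHC class II median lies below 0 in all 3.

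The genes with the largest ratios differed by library. In Ad-COMBO, beside Tnf, Egr1, an immediate early transcription factor, stood at 1197 CPM, against 162 in Ad-Null, with 40.9% of its UMIs in 1 cell, and Nupr1 at 750 CPM, against 109 in Ad-Null, with 73.0% in 1 cell. Fgfbp3 stood at 184 CPM, against 22.3 in Ad-Null, and Slc27a3 at 212 CPM, against 27.5 in Ad-Null, both in 9 cells of Ad-COMBO. Mab21l3, Ly6d and Ly6c2 were also among the highest, with 55.2%, 100% and 96.8% of their Ad-COMBO UMIs in 1 cell. For Ly6d and Ly6c2 this cell also held all 25 UMIs of Siglech, a plasmacytoid DC marker, in that library. Cxcl2, a neutrophil chemokine, stood at 4.71 CPM in Ad-COMBO, against 479 in Ad-Null, and Lyz2, lysozyme, and Cfp, properdin, had no UMI in Ad-COMBO, against 204 CPM of Lyz2 and 197 CPM of Cfp in Ad-Null. Hist1h1b and Hist1h2ae had none either, and Dct stood at 4.71 CPM.

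In Ad-mIFNB, Ccl4, an inflammatory chemokine, stood at 4670 CPM in 36 of 46 cells, against 738 CPM in 90 of 134 Ad-Null cells. Ad-COMBO held 2121 CPM of Ccl4 in 7 of 19 cells and Ad-MEM40 803 CPM. Ly6c2 stood at 493 CPM in Ad-mIFNB, against 69.0 in Ad-Null. Sct stood at 112, against 6.87 in Ad-Null, Apod at 94.5, against 11.7 in Ad-Null, and Lipg at 80.2, against 8.24 in Ad-Null. Ifit3b, an interferon-induced gene, stood at 110, against 13.04 in Ad-Null. Gzmc, a granzyme, came from 1 cell. The lowest ratios in Ad-mIFNB were those of the melanoma genes Dct, Tyrp1, Pmel and Mlana, each with over 95% of its Ad-Null UMIs in 1 cell, of Hist1h2ap and Hist1h1b, of the cDC2 marker Cd209a (2.86 CPM, against 71.1 in Ad-Null) and of Apoe (7.16 CPM, against 107 in Ad-Null).

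In Ad-MEM40 the highest ratios included Clec4e, the receptor Mincle, at 51.0 CPM, against 7.90 in Ad-Null, Lyz2 at 586, against 204 in Ad-Null, Cxcl1, a neutrophil chemokine, at 67.1, against 22.998 in Ad-Null, and Ccl6 at 365, against 145 in Ad-Null. Scin stood at 105 CPM, against 37.4 in Ad-Null, and Phlda1 at 164, against 58.0 in Ad-Null. Several of these log2 ratios moved with the settings. That of Phlda1 was 1.42, and 0.06 without the barcodes that carried other cell types' markers and 0.11 after thinning to 5000 UMIs. That of Scin was 1.37, and 0.29 after thinning, and that of Ccl6 was 1.30, and 0.18 without Scrublet doublets. Ptgds and Gpnmb were higher with 80.9% and 60.1% of their Ad-MEM40 UMIs in 1 cell. The 9 macrophage markers measured had a median log2 ratio of 0.56 in Ad-MEM40, with 4 at least 1.5-fold higher, and their part in the Lyz2 and Ccl6 values was not tested. The lowest ratios were those of the histone genes Hist1h2ap, Hist1h4d, Hist1h2ae, Hist2h2ac and Hist1h1b, of Bex6 and Txndc16, and of Mgl2, a lectin of cDC2s, at 51.9 CPM, against 138 in Ad-Null. The log2 ratio of Mgl2 was -1.33, and -0.10 after thinning.

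Cytokine and chemokine genes were then followed across Il12b levels inside the group, by setting cells over 10 Il12b UMIs per 10000 against cells under 2. The over-10 cells numbered 16 in Ad-mIFNB, 89 in Ad-MEM40 and 46 in Ad-Null, and the under-2 cells 10 in Ad-mIFNB, 40 in Ad-MEM40 and 45 in Ad-Null. Ad-COMBO had 8 over-10 and 2 under-2 cells and was left out of the counts. Of 27 cytokine, chemokine and IL-12 family genes with at least 60 UMIs over the 3 libraries, 3 were at least 1.5-fold higher in all 3 (11.1%) and 0 lower, beside 93 higher (1.33%) and 252 lower (3.60%) of 6994 genes. They were Il6, Lta and Ccl5. Il6, an inflammatory cytokine, stood at 255 CPM in over-10 and 13.2 CPM in under-2 cells of Ad-mIFNB, at 55.8 CPM in over-10 and 22.4 CPM in under-2 cells of Ad-MEM40, and at 89.9 CPM in over-10 and 15.2 CPM in under-2 cells of Ad-Null. Lta, lymphotoxin alpha, stood at 115 CPM in over-10 and 4.40 CPM in under-2 cells of Ad-mIFNB, 32.7 CPM in over-10 and 0 CPM in under-2 cells of Ad-MEM40, and 27.0 CPM in over-10 and 4.55 CPM in under-2 cells of Ad-Null. Ccl5 stood at 20960 CPM in over-10 and 5727 CPM in under-2 cells of Ad-mIFNB, 8433 CPM in over-10 and 5282 CPM in under-2 cells of Ad-MEM40, and 8692 CPM in over-10 and 3125 CPM in under-2 cells of Ad-Null.

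Ebi3 leaned the same way but reached 1.5-fold in Ad-mIFNB (235 CPM in over-10 and 65.9 CPM in under-2 cells) and Ad-Null (124 CPM in over-10 and 34.1 CPM in under-2 cells). In Ad-MEM40 it was just short of that, at 95.8 CPM in over-10 and 62.4 CPM in under-2 cells. Tnf separated the libraries, at 644 CPM in over-10 and 127 CPM in under-2 cells of Ad-mIFNB, 253 CPM in over-10 and 157 CPM in under-2 cells of Ad-MEM40, and 114 CPM in over-10 and 127 CPM in under-2 cells of Ad-Null. Of the state contrast genes followed, Cd81 and Ly75 were at least 1.5-fold higher in over-10 cells of all 3 libraries, and H2-DMb2 1.5-fold lower. Irf8, Bcl2l14, Gpr183, Fabp5 and Scin did not reach this in all 3. On the log2 scale Scin was at 0.41 in Ad-mIFNB, 1.73 in Ad-MEM40 and -0.36 in Ad-Null. Fabp5 was at -1.02 in Ad-mIFNB, -0.80 in Ad-MEM40 and 0.73 in Ad-Null. The same Il12b-positive cells entered the state contrast, so the genes that agree are no separate evidence. Cd81 stood at 120 CPM in over-10 and 30.8 CPM in under-2 cells of Ad-mIFNB, 208 CPM in over-10 and 99.2 CPM in under-2 cells of Ad-MEM40, and 114 CPM in over-10 and 63.7 CPM in under-2 cells of Ad-Null. Depth moved with this division. The median over-10 cell held 11541 UMIs in Ad-mIFNB, 8123 in Ad-MEM40 and 12316 in Ad-Null, and the median under-2 cell 21695 UMIs in Ad-mIFNB, 13191.5 in Ad-MEM40 and 24009 in Ad-Null. The part of depth in these differences was not tested.

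**Figure D5:**
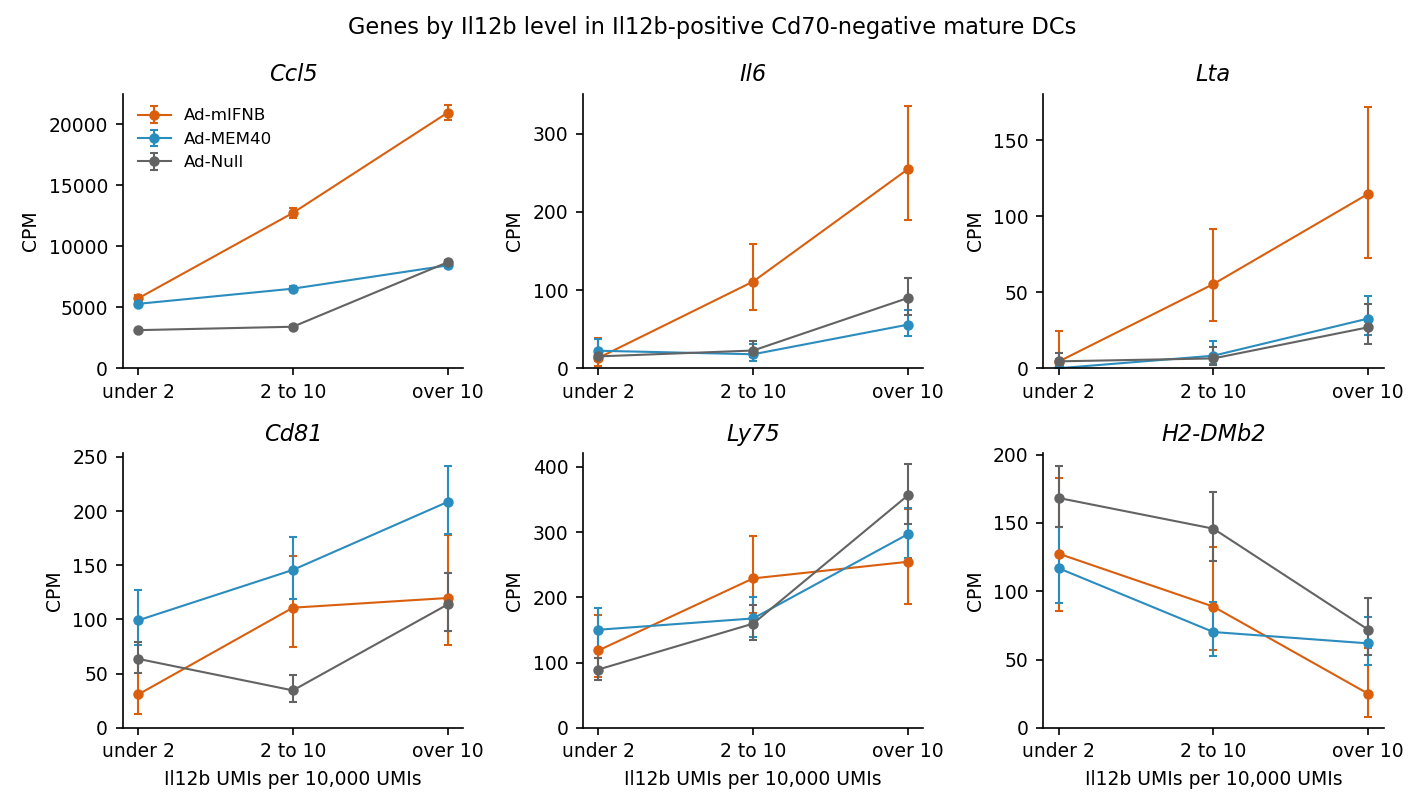
Levels in CPM (vertical axis) of 6 genes in Il12b-positive cells grouped by Il12b UMIs per 10000 UMIs (horizontal axis), 1 line per library, with exact 95% Poisson intervals. Ccl5, Il6, Lta, Cd81 and Ly75 are higher and H2-DMb2 is lower in over-10 than in under-2 cells of Ad-mIFNB, Ad-MEM40 and Ad-Null. The genes shown are among those that reached 1.5-fold in each of these libraries, and the other genes followed are not shown.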

How the data were processed

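The authors deposited UMI counts per gene and barcode for 4 10x Genomics libraries, whole-number counts per the file headers. Per the submitters' processing notes, Cell Ranger 3.0 with mm10 and Seurat 4.0 were used. The headers of the deposited matrices give the version of Cell Ranger as 6.0.0. The labels give no replicate of a treatment.

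Barcodes were selected and summed with Python 3.11.15, numpy 2.4.6, scipy 1.17.1 and pandas 2.3.3. CPM are summed UMIs scaled to the total of the sum, and a gene counted as measured between libraries with at least 20 UMIs over both sums. Genes were called at 2-fold and list members at 1.5-fold, with 5 CPM added. The 32285 gene identifiers held all but 7 of 377 list genes. Doublets were called per library with Scrublet in scanpy 1.11.5 and left out as an alternative. Its automatic threshold marked 0% of Ad-MEM40 and 15.7% of Ad-Null barcodes, so in both the expected share, 12.5% and 7.00%, was marked by score. State contrasts used edgeR 4.0.16 (TMM, filterByExpr, quasi-likelihood test, library as a block, Benjamini-Hochberg at 0.05) in R 4.3.3, with sums of at least 20 cells. DESeq2 1.42.0 was an alternative. Library pairs the state sums because the states of a library come from the same tumors. The scripts were tested on simulated data.

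Genes were named by rule, as the 12 highest and 12 lowest state changes past the threshold with 1 direction in all 4 libraries and at least 50 CPM in a state, and the 8 highest and 8 lowest library ratios with at least 50 CPM and 50 UMIs. Mitochondrial, ribosomal, haemoglobin, immunoglobulin, receptor segment, Xist, Y-linked, Gm and Rik genes were left out. List members were also named. Ly75 and Itgax are outside the rule and on no list, and which list genes are named was decided after their values were seen. The members, lists and comparisons were chosen with earlier results of these data known. Coordinates are those of GENCODE M21 (GRCm38).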

Additional observations from a re-analysis of the deposited data

Results flagged for a closer look

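Among the response lists with at least 10 measured genes, 4 had median log2 ratios over Ad-Null of opposite sign in Il12b-positive and Il12b-negative cells, each at least 0.2 from 0, and none of these differences was tested. Lists of cell type markers were not part of this comparison. With Ad-COMBO, the cytokine list had a median log2 ratio of -0.25 in Il12b-positive and 1.40 in Il12b-negative cells. The chemokine list had -0.53 in Il12b-positive and 0.21 in Il12b-negative cells, and the interferon gamma-associated list had -0.22 in Il12b-positive and 1.26 in Il12b-negative cells. The Ad-COMBO median of all genes was -0.18 in both Il12b-positive and Il12b-negative cells. The cytokine and interferon gamma-associated medians of Il12b-positive cells thus lay near that of all genes. Cxcl10, an interferon-induced chemokine for T cells, stood at 203 CPM in Il12b-positive and 1921 CPM in Il12b-negative cells of Ad-COMBO, and at 295 CPM in Il12b-positive and 459 CPM in Il12b-negative cells of Ad-Null. Il1b stood at 561 CPM in Il12b-positive and 2142 CPM in Il12b-negative cells of Ad-COMBO, and at 776 CPM in Il12b-positive and 903 CPM in Il12b-negative cells of Ad-Null. With Ad-MEM40, the type I interferon list had a median of -0.39 in Il12b-positive and 0.28 in Il12b-negative cells. Ifit3 stood at 31.7 CPM in Il12b-positive and 115 CPM in Il12b-negative cells of Ad-MEM40, and at 77.9 CPM in Il12b-positive and 88.1 CPM in Il12b-negative cells of Ad-Null. The Ad-COMBO values come from 19 Il12b-positive and 35 Il12b-negative cells.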

How the results depend on the processing

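Against Il12b-negative cells 32 genes and against Cd70-positive cells 26 genes were called, and both counts moved with the settings. They were 256 and 220 with no filter on low counts and 83 and 53 after thinning to 5000 UMIs. Without Scrublet doublets they were 66 and 12. Leaving out each library in turn gave 1 to 89 and 0 to 72 genes. Without the library block, which pairs the states of a library, edgeR called 0 and 0 genes, with 146 higher and 160 lower, and 220 higher and 268 lower, at an unadjusted p under 0.05. DESeq2 called 58 and 22. Of alternatives added after the data were seen, including the Ad-COMBO Il12b-positive cells gave 68 and 20, the same with thinning 106 and 47, and leaving out barcodes with other cell types' markers 39 and 10. Of the 24 called genes with 1 direction in 4 libraries and at least 50 CPM against Il12b-negative cells, 24 stayed called with DESeq2, 20 with thinning and 0 without Ad-MEM40; of the 11 such genes against Cd70-positive cells these were 9, 4 of 10 and 0. Thinning turned Phlda1 to -0.40 (-0.22 with Ad-COMBO cells included) and Dct over Cd70-positive cells to -0.86. The causes were not tested.

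Genes past 2-fold in Ad-COMBO numbered 2364 of 8232 tested, against 739 of 3228 after thinning and 852 of 3276 at 50 CPM or more. In Ad-mIFNB they numbered 693 of 8511, against 1185 of 8511 with 1 CPM added, 461 of 7829 without doublets, 428 of 3753 after thinning and 230 of 3088 at 50 CPM or more. In Ad-MEM40 they numbered 138 of 9304, against 426 of 9304 with 1 CPM added and 35 of 2950 at 50 CPM or more. In Ad-COMBO, thinning turned Mab21l3 to -0.32, Ly6d to -1.24 and Ly6c2 to -2.97, at least 2 Il12b UMIs turned Ly6d to -1.29 and Ly6c2 to -0.76, and leaving out barcodes with other cell types' markers turned them to -0.10 and -1.38. Thinning turned Ptgds in Ad-MEM40 to -0.28. The maturation median in Ad-COMBO was 0.14 after thinning, and the cell cycle median -4.20 with 1 CPM added and -0.89 after thinning. Of 189 other settings of list medians 186 moved by less than 1.5-fold. They covered the type I interferon, CD40 and NF-kB, costimulation, maturation, MHC class I, MHC class II and cell cycle lists. The cytokine, chemokine and interferon gamma-associated lists and the marker lists were not among them. Without doublets 5 list genes, not 3, followed Il12b in 3 libraries.

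Requiring 2 Il12b UMIs gave shares of mature DCs of 25.6% in Ad-MEM40 and 26.8% in Ad-Null. The share of barcodes past the quality limits in Ad-MEM40 was 1.94% without barcodes carrying other cell types' markers, 1.07% with 2 Il12b UMIs, 1.52% with 1 Ccr7 UMI and 1.02% after thinning to 3000 UMIs. In Ad-Null it was 2.06% without such barcodes, 1.18% after thinning to 5000 and 0.937% after thinning to 3000 UMIs. The 19 Ad-COMBO cells limit that library most, and with 1 library per treatment, the treatment, the tumors and the library cannot be told apart.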
